A study of Mus musculus with 6 samples.

Results

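The neural miRNAs of the aortic wall were followed as 9 assays, mmu-miR-9, mmu-miR-124, mmu-miR-137, mmu-miR-138, mmu-miR-153, mmu-miR-219, mmu-miR-383, mmu-miR-132 and mmu-miR-212, written below without the prefix for mouse. They were found by their exact names in the table, without names marked by an asterisk, and all 9 of the 9 were present among 596 mouse miRNA assays, 8 on card A and 1 (miR-212) on card B of the PCR arrays. The arrays quantified miRNAs by real-time PCR in whole aortas of 6 female Apoe-/- mice, 3 per group. All mice were Apoe-/- and carried VE-Cadherin-CreERT2, a Cre recombinase that tamoxifen switches on and that the VE-Cadherin promoter drives in endothelial cells. EC-Dicerflox mice were Dicer1flox/flox and EC-DicerWT littermates were Dicer1WT/WT, so that tamoxifen is meant to delete Dicer1 in the endothelium of the former. Every mouse, controls included, received tamoxifen on 5 days (2 mg per 20 g body weight) and 12 weeks of a high-fat diet (19.5% casein, 21% crude fat and, as cholesterol, 0.15%). The labels give an age of 6 to 8 weeks, which the design text places at the start of the diet. The arrays hold no mRNA assay, and the Dicer1 status of these 6 aortas was not examined here.

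Dicer cuts mature miRNAs from hairpin precursors, with that of miR-451 as an exception. Loss of Dicer stops the new supply of the miRNAs it cuts in the cell that lacks it. The members were grouped as neural miRNAs, and those described next are best known from the nervous system. For miR-383 no role is given here. MiR-124 is the abundant miRNA of differentiated neurons and miR-9 acts in neural progenitors. MiR-137 acts in neuronal maturation and miR-138 at dendritic spines, miR-153 is enriched in neurons and miR-219 drives the maturation of oligodendrocytes. MiR-132 and miR-212 are cut from neighbouring hairpins, are induced in neurons by the transcription factor CREB, and miR-132 is also known from activated endothelium. The comparison asks which of them the aorta contains, and whether their levels differ when endothelial cells lack Dicer.

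The mature sequences are shown first, because they decide which members can act on the same targets. A mature sequence was matched by name in the RefSeq table (GRCm38.p6) for 7 of the 9 members, and not for miR-124 and miR-383. The arm was taken to be the one that carried the plain miRNA name when the arrays were designed. This choice was not checked against the assays. The seed, bases 2 to 8 from the 5′ end, is in capitals.
miR-132: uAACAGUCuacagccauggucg
miR-212: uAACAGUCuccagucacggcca
miR-9: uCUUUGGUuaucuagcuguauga
miR-138: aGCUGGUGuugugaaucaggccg
miR-219: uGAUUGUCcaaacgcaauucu
miR-137: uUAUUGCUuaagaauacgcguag
miR-153: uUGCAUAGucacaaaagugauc
The 7 sequences held 6 distinct seeds, and the only shared seed was that of miR-132 and miR-212, which were identical at 17 of 22 positions. No other mature miRNA in that RefSeq table carried any of these seeds, and miR-124 and miR-383 could not be compared. The other 5 sequences shared no seed with one another or with this pair.

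The hairpins of the pair with the shared seed are shown with the mature strand in capitals, because both miRNAs come from the same short stretch of chromosome 11. Mir212 lies at chr11:75173388-75173478 and Mir132 at chr11:75173682-75173747, both on the plus strand and with 203 bases between them.
Mir212: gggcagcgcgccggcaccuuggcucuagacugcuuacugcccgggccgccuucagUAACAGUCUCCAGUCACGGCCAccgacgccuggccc
Mir132: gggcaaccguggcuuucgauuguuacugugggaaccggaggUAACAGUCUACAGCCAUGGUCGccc
MiR-137 comes from 1 gene (Mir137, chr3:118433857-118433929) and miR-153 from 1 gene on chromosome 12 that overlaps Ptprn2, a protein tyrosine phosphatase gene. MiR-9 is encoded by 3 genes, on chromosomes 3, 7 and 13, each of which overlaps a long non-coding RNA gene. MiR-138 has 2 genes, on chromosomes 8 and 9, and miR-219 has 2, on chromosomes 2 and 17. An assay reads the mature strand, so it cannot tell which of several genes made it.

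The measured value is the cycle threshold (Ct), the PCR cycle at which the signal of an assay crosses a set level. A higher Ct means less RNA, and a Ct of 40 stands for not detected. Whole-aorta identity was checked on marker miRNAs. The smooth muscle miRNAs miR-145 (Ct 14.547 to 14.803) and miR-143 (15.807 to 16.471) and the endothelial miR-126-3p (17.246 to 17.760) had low Ct in all 6 samples. Of all miRNA assays 394 (66.1%) were detected in all samples, and per sample 421 to 454 were detected.

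Of the 9 neural members 6 (66.7%) were detected in every aorta, against 66.1% of all miRNA assays. These were miR-132, miR-9, miR-212, miR-138, miR-219 and miR-137. MiR-124 was detected in 5 samples, miR-153 in 2 and miR-383 in 1. No member was undetected throughout, while 17.8% of all assays were. The number of detected members was 8, 7 and 7 in EC-Dicerflox and 7, 7 and 8 in EC-DicerWT aortas, a mean of 7.33 ± 0.58 (SD, n = 3) in both.

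**Figure D1:**
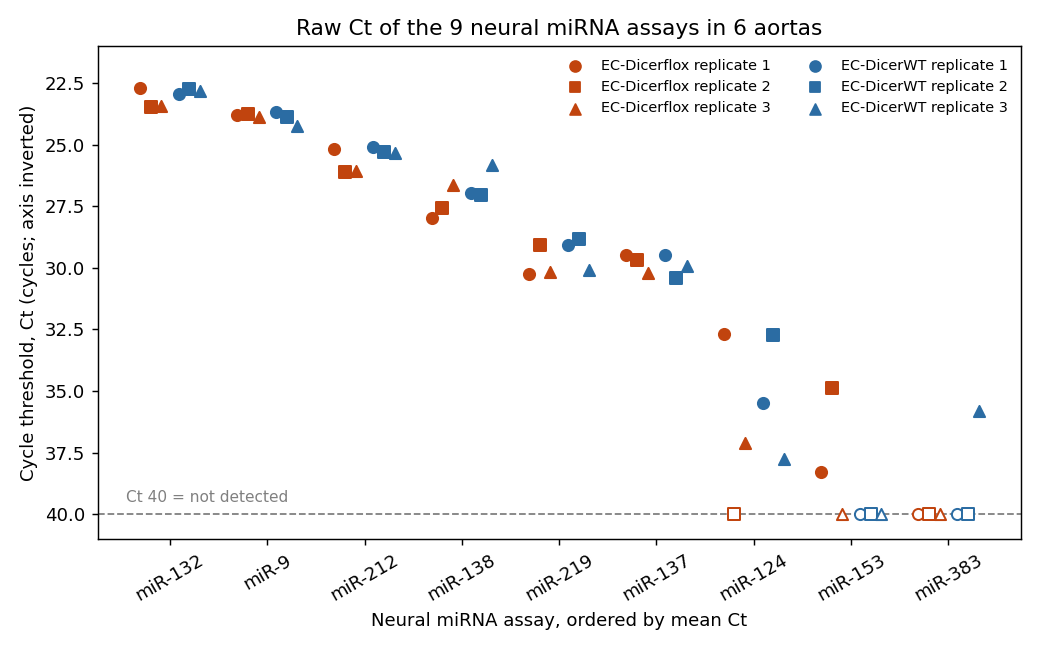
Raw Ct of each neural miRNA assay (vertical axis in cycles, inverted so that more RNA is higher) in 3 EC-Dicerflox (red) and 3 EC-DicerWT (blue) aortas, with the marker shape giving the replicate and open symbols standing for undetected wells at Ct 40. MiR-132 and miR-9 lie between 22.696 and 24.232 in all samples, whereas miR-124 runs from 32.689 to undetected.

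MiR-132 had the lowest Ct of the members. It was 22.696, 23.494 and 23.426 in EC-Dicerflox and 22.968, 22.752 and 22.838 in EC-DicerWT aortas, so that replicates 2 and 3 of EC-Dicerflox were highest and replicate 1 of EC-Dicerflox was lowest. Its mean Ct ranked 107 of the 596 miRNA assays, and 17.8% of the assays had a lower mean Ct. It crossed the threshold 5.50 ± 0.28 cycles (SD, n = 6) after miR-126-3p. Such a difference between assays is not a ratio of molecules, since the efficiency of each assay was not measured.

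MiR-9 was the steadiest member in raw Ct. It was 23.810, 23.755 and 23.884 in EC-Dicerflox and 23.697, 23.874 and 24.232 in EC-DicerWT aortas, a range of 0.54 cycles. Its SD over the 6 samples was 0.19 cycles, the rank 9 from the lowest among the 394 assays detected in all samples, whose median was 0.60 cycles. The Ct difference from miR-145, the main smooth muscle miRNA, was 9.21 ± 0.14 cycles (SD, n = 6). After subtraction from the reference of control RNAs the spread of miR-9 within groups was 0.33 log2 units, against 0.20 cycles in raw Ct.

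MiR-212 followed with 25.189, 26.118 and 26.087 in EC-Dicerflox and 25.093, 25.301 and 25.327 in EC-DicerWT aortas. Replicates 2 and 3 of EC-Dicerflox had the highest Ct of miR-212, as they had for miR-132. MiR-138 was 27.971, 27.595 and 26.628 in EC-Dicerflox and 26.982, 27.060 and 25.835 in EC-DicerWT aortas. In both groups the third replicate had the lowest Ct of miR-138, and the groups overlapped.

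MiR-219 and miR-137 lay near the middle of all assays, with 50.8% and 51.8% of the assays at a lower mean Ct. MiR-219 was 30.243, 29.091 and 30.159 in EC-Dicerflox and 29.079, 28.853 and 30.071 in EC-DicerWT aortas. MiR-137 was 29.502, 29.692 and 30.227 in EC-Dicerflox and 29.492, 30.424 and 29.916 in EC-DicerWT aortas. In both miRNAs the groups overlapped.

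MiR-124, the most neuron-specific member, was found only late. Its Ct was 32.689, 40 and 37.110 in EC-Dicerflox and 35.499, 32.736 and 37.739 in EC-DicerWT aortas, so that both groups held an early and a late sample. MiR-153 had a Ct of 38.305 and 34.898 in EC-Dicerflox replicates 1 and 2 and was undetected in the other 4 samples. MiR-383 was seen in EC-DicerWT replicate 3 alone, at 35.825. Together the members had 54 wells, of which 44 were detected, 5 of them at a Ct from 35 to under 40. With a detection limit of Ct 35, miR-124 would count as detected in 2 samples, miR-153 in 1 and miR-383 in 0.

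In order of mean Ct the members ran from miR-132 (23.0) over miR-9 (23.9), miR-212 (25.5), miR-138 (27.0), miR-219 (29.6) and miR-137 (29.9) to miR-124 (36.0). The ranges over the 6 samples did not overlap between neighbours in this order except for 2 pairs. MiR-212 and miR-138 overlapped in range, although miR-138 had the higher Ct in all 6 samples (mean difference 1.49 cycles, range 0.51 to 2.78). MiR-219 and miR-137 differed by 0.29 ± 0.78 cycles (SD, n = 6), with miR-137 higher in 4 of 6 samples, so their order was within the spread.

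For comparison between groups a level was computed as the mean Ct of 5 control RNAs in a sample minus the Ct of the miRNA, which is a log2 value where each cycle doubles the PCR product. This reference lay at a Ct of 19.4 to 20.4 over the 6 samples, and its group means differed by 0.16 cycles. Assays detected in at least 3 samples were tested with limma, which held for 439 assays and 7 of the 9 members. MiR-153 and miR-383 were not tested.

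None of the 7 tested members differed between the groups by limma. None had a Benjamini-Hochberg adjusted P under 0.05, as in 0% of the 439 tested assays, and 0 of 7 had an unadjusted P under 0.05, against 4.78% of all (3.87% lower and 0.911% higher). In 0 of 7 did the groups separate without overlap, against 9.79% of all. Of the tested members 5 were lower and 2 higher, with a median change of -0.34, and over all tested assays the median was -0.10 with 61.7% lower. Without EC-DicerWT replicate 3 only 3 of the 7 were lower, where the median of all tested assays was -0.12. With U6 alone as reference all 7 were lower, and the median of all tested assays moved to -0.48. All 7 members had an adjusted limma P of 0.99. In whole tissue, fewer cells of a type and less RNA per cell cannot be told apart.

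Both miRNAs of the pair with the shared seed had a lower mean in EC-Dicerflox aortas, within the spread between samples. MiR-132 had levels of -3.26, -3.62 and -3.07 in EC-Dicerflox and -3.40, -3.31 and -2.67 in EC-DicerWT aortas. Its change was -0.19 ± 0.30 (SE; 95% confidence interval -0.96 to 0.58), which is 87.6% of EC-DicerWT (51.4% to 149%), and it was 0.0356 without EC-DicerWT replicate 3, the sample with the highest level. MiR-212 had levels of -5.75, -6.25 and -5.73 in EC-Dicerflox and -5.52, -5.86 and -5.16 in EC-DicerWT aortas. Its change of -0.40 ± 0.29 (SE; -1.13 to 0.34) had the smallest unadjusted limma P of the members (0.23), at rank 81 of 439. This is 76.0% of EC-DicerWT, and the interval from 45.5% to 127% included both a decrease and an increase.

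MiR-9 and miR-137 were the 2 members with a higher mean in EC-Dicerflox aortas. MiR-9 had levels of -4.37, -3.88 and -3.53 against -4.13, -4.43 and -4.06, a change of 0.28 ± 0.30 (SE; -0.47 to 1.03; unadjusted limma P of 0.39). With U6 alone as reference the sign turned (-0.0987). MiR-137 had levels of -10.06, -9.82 and -9.87 against -9.92, -10.98 and -9.75, so that EC-DicerWT replicate 2 stood below the other 5 samples. Its change of 0.30 ± 0.39 (SE; -0.68 to 1.28) became -0.0831 without that replicate and -0.0797 with U6 alone.

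**Figure D2:**
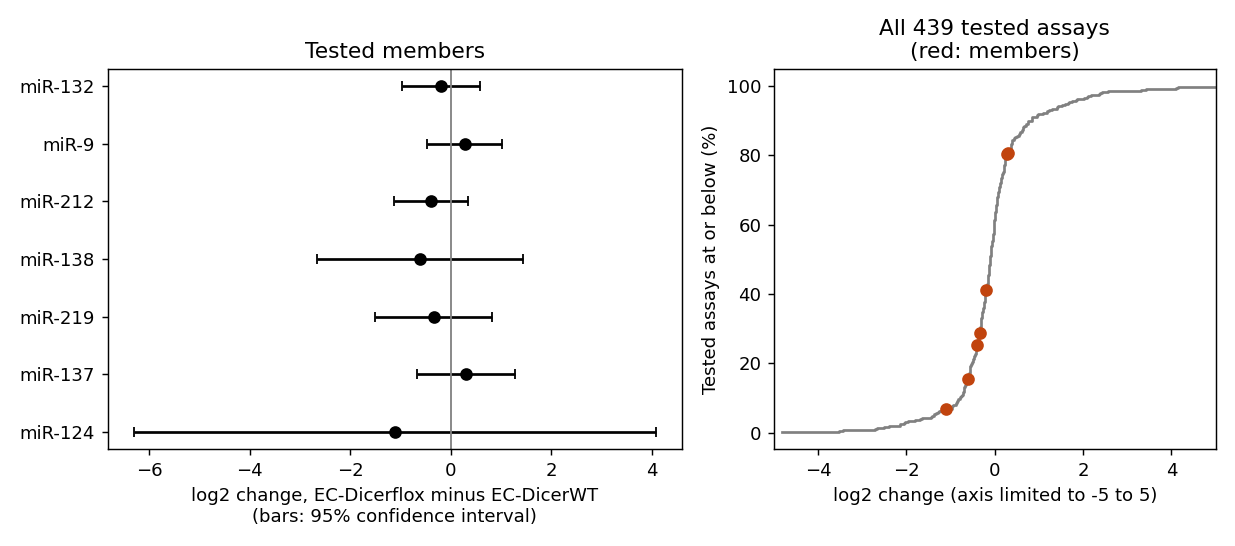
Left, log2 change of the 7 tested members, EC-Dicerflox minus EC-DicerWT, with 95% confidence intervals from limma (n = 3 per group). Right, cumulative distribution of the change over all 439 tested assays, with the members in red. All 7 intervals include 0, and the members lie between -1.11 and 0.30, where miR-9 and miR-137 almost coincide.

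MiR-138 was highest in the third replicate of both groups. Its levels were -8.53, -7.72 and -6.27 in EC-Dicerflox and -7.41, -7.61 and -5.67 in EC-DicerWT aortas. The third replicates of both groups lay 1.85 log2 units above the other samples, whereas for the other members detected in all samples this difference ran from -0.12 (miR-219) to 0.53 (miR-132). The reference Ct was also highest in the third replicates, and in raw Ct the offset of miR-138 was 1.17 cycles, with U6 alone 0.96. A reference shifts this offset by the same amount in every assay, so it cannot change the rank of miR-138. Of the 394 assays detected in all samples 93.7% had a smaller offset than miR-138. The change between groups was -0.61 ± 0.81 (SE; -2.66 to 1.44; unadjusted limma P of 0.48). It was -0.61 in replicates 1 and 2 alone, where the differences between same-numbered samples were -1.12 and -0.11. Between the third replicates it was -0.61, where there is no test. With a batch term for replicate 3 the SE fell to 0.29 and the unadjusted limma P was 0.096 (adjusted P of 0.83). The labels name no such batch, so this term is an assumption. Without EC-DicerWT replicate 3 the change was 0.0040.

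The second strand of the miR-138 hairpins, miR-138*, was the 1 second strand of a member on the cards. Its Ct was 33.267, 34.018 and 32.808 in EC-Dicerflox and 32.697, 35.104 and 33.546 in EC-DicerWT aortas. It crossed the threshold 6.56 cycles after miR-138 on average, and its change of 0.58 ± 0.85 (SE; adjusted limma P of 0.99) had the opposite sign to that of miR-138.

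MiR-219 had levels of -10.80, -9.22 and -9.80 in EC-Dicerflox and -9.51, -9.41 and -9.90 in EC-DicerWT aortas, with EC-Dicerflox replicate 1 as the lowest. The change was -0.34 ± 0.46 (SE; -1.50 to 0.83), and 0.0951 without that replicate. MiR-124 changed by -1.11 ± 2.05 (SE), with an interval from -6.31 to 4.08 that leaves its direction unknown. Without EC-Dicerflox replicate 2, which holds the undetected well kept at 40, the change was 0.59, and without EC-DicerWT replicate 2 it was 0.0392.

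The spread of the members was set beside that of assays with a similar Ct. MiR-138 had an SD within groups of 1.11 log2 units, larger than in 55 of the 66 assays within 1 cycle of its mean Ct, whose median was 0.44. This rank depended on the reference. In raw Ct its SD was 0.69, larger than in 37 of the 66, and with U6 alone it was 0.66, larger than in 29 of them. MiR-137 varied less than most of its neighbours, with an SD of 0.48 and 13 of 52 assays below it. With that reference miR-132 (0.34), miR-9 (0.33), miR-212 (0.32) and miR-219 (0.60) had between 17 and 27 assays below them among 37 to 64 neighbours. Their SDs also moved with the reference. In raw Ct the SD was 0.42 for miR-137, 0.20 for miR-9 and 0.65 for miR-219, and with U6 alone 0.63, 0.48 and 0.83. For miR-132 and miR-212 it was 0.32 and 0.38 in raw Ct, and 0.33 and 0.49 with U6 alone. Ranks under these references were taken for miR-138 alone.

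**Figure D3:**
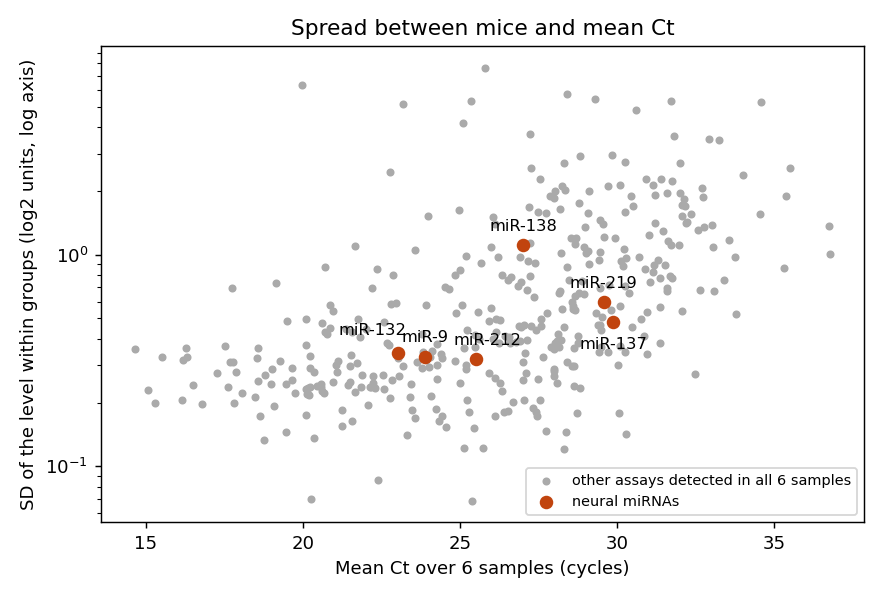
SD of the level within groups (vertical, log2 units on a log axis) against the mean Ct over 6 samples (horizontal, cycles) for the 394 assays detected in all samples, with the 6 neural miRNAs in red. With the 5 control RNAs as reference miR-138 lies at 1.11, above the other members, which lie between 0.32 and 0.60.

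The hairpins of miR-132 and miR-212 are known to be cut from a shared primary transcript. The difference of their levels in a sample does not depend on the control RNAs where both share the same reference, as here. MiR-132 minus miR-212 was 2.49, 2.62 and 2.66 log2 units in EC-Dicerflox and 2.13, 2.55 and 2.49 in EC-DicerWT aortas. The groups overlapped, with EC-DicerWT replicate 1 as the lowest sample. The means were 2.59 ± 0.09 (SD, n = 3) and 2.39 ± 0.23 (SD, n = 3), and their difference of 0.21 was not resolved (P = 0.2, exact two-sided permutation test). The smallest P that 3 against 3 samples allow is 0.1, and this was the only comparison of its kind. Without EC-DicerWT replicate 1 the difference was 0.07. The miRNAs were read on different cards. With a separate reference per card the change was -0.20 for miR-132 and -0.39 for miR-212. The part of the card in the difference was not tested further.

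The profiles over the 6 samples were compared by the root mean square difference of levels centred on their own mean, as a description without a test. Each member was compared with 393 other assays detected in all samples. All levels share the same reference, which cancels in such a difference. MiR-132 and miR-212 were closest to each other among the members, at 0.18 log2 units, and each held rank 10 in the list of the other. The assays closest to miR-132 were let-7g (0.108), miR-16 (0.112) and miR-210 (0.113). Those closest to miR-212 were miR-511 (0.108), miR-342-3p (0.120) and miR-340-5p (0.132). The median over all assays was 0.50 for miR-132 and 0.51 for miR-212.

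The other members were farther apart. The nearest assays to miR-9 were miR-2138 (0.0565), miR-328 (0.0844) and miR-2134 (0.117), and its nearest member was miR-137 at rank 88. For miR-137 they were miR-1937c (0.188), miR-805 (0.200) and miR-487b on card A (0.221). MiR-138 had miR-434-3p (0.350), miR-676 (0.357) and miR-136 (0.397), and miR-219 had miR-190 (0.205), miR-362-3p (0.214) and miR-494 (0.272). Between miR-138 and miR-219 the difference was 0.98, the widest of any pair of members detected in all samples.

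**Figure D4:**
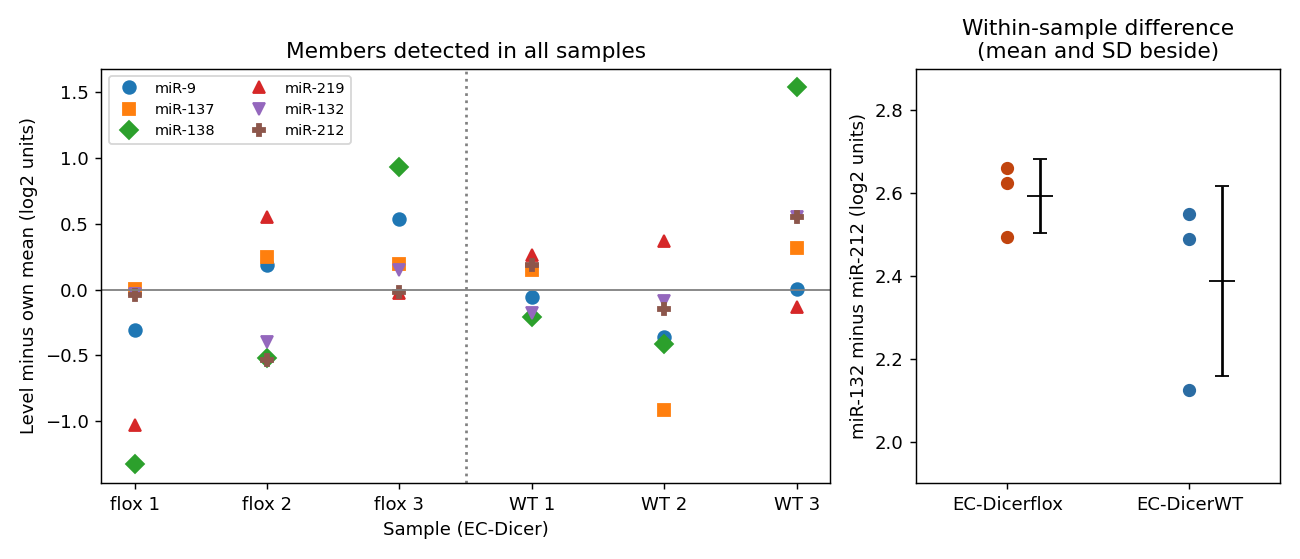
Left, level of each of the 6 members detected in all samples minus its own mean (log2 units) in every sample. MiR-138 runs from -1.33 to 1.54 and miR-132 and miR-212 differ by a root mean square of 0.18. Right, miR-132 minus miR-212 within each sample (points) with mean and SD per group, where the groups overlap between 2.49 and 2.55.

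MiRNAs of other cell types were examined beside the members. EC-DicerWT replicate 2 held the highest level of all 6 epithelial miRNAs (miR-200a, miR-200b, miR-200c, miR-141, miR-429 and miR-205), and their summed linear level there was 3.33 times the median of the other samples. Summed over the 6 assays it ranged from 0.0315 to 0.0667 relative to the control RNAs in EC-Dicerflox and from 0.0524 to 0.199 in EC-DicerWT aortas. None of the 6 members detected in all samples was highest in EC-DicerWT replicate 2, and miR-9 and miR-137 were lowest there, in raw Ct only miR-137. The summed level of the members in that sample was 0.944 times the median of the others. This linear sum is weighted to the members with the lowest Ct, miR-132 and miR-9, and says little about the rest. MiR-124 had a Ct of 32.736 in that sample, close to its lowest of 32.689 in EC-Dicerflox replicate 1. Smooth muscle and endothelial miRNAs overlapped between the groups, with sums from 38.8 to 66.5 and from 3.94 to 7.08, and so did leukocyte miRNAs (1.69 to 3.35), erythrocyte miRNAs (0.967 to 1.71, without miR-144) and the sum of striated muscle miRNAs (2.39 to 3.32). In the last list miR-208, a heart muscle miRNA, did not overlap between the groups (change -1.65 ± 0.53, SE; unadjusted limma P of 0.024, adjusted P of 0.98). Such separation held for 9.79% of all tested assays. The others of that list went both ways. MiR-133a (0.07) and miR-133b (0.23) had a higher mean in EC-Dicerflox aortas and miR-1 (-0.15) a lower one. MiR-208b was detected only in EC-Dicerflox replicates 2 and 3 (Ct 35.098 and 33.608), and miR-499 only in EC-DicerWT replicate 2 (35.753). The part of these cell types in the values of the members was not tested.

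Other brain-enriched miRNAs were counted in the same way. Of 35 such assays 22 (62.9%, against 66.1% of all miRNA assays) were detected in all samples. Another 6 were detected in some and 7 (20%, against 17.8% of all) in none, and 25 were tested. By limma 16 (64%) were lower and 9 higher in EC-Dicerflox aortas, against 61.7% lower among all tested assays. The median change was -0.25, against -0.10 over all. None had an adjusted P under 0.05, as in 0% of all, and 1 of the 25 had an unadjusted P under 0.05, against 4.78% of all. That assay was miR-487b on card B (-0.80 ± 0.31, SE; unadjusted limma P of 0.046, adjusted P of 0.98), whereas miR-487b on card A changed by 0.17 ± 0.30 (SE). The highest levels on the list were those of miR-218 (mean Ct 22.4, change -0.08), miR-139-5p (22.6, -0.54) and miR-708 (25.2, -0.06), all of which had adjusted limma P values of 0.99. Among the lists of miRNAs from other tissues, 4 of 6 striated muscle assays and 6 of 6 epithelial assays were detected in all samples.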

How the data were processed

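The deposited table holds the authors' raw Ct values for 608 assays in 6 samples, with no reference RNA subtracted. Per the study's methods, cDNA made with rodent primer pools was preamplified before the TaqMan array cards were run. Preamplification and the assumed doubling per cycle can change differences between samples and assays. How baseline and threshold were set was not stated. The card was read from the length of the assay number.

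Levels were the mean Ct of U6, snoRNA135, snoRNA202, U87 and Y1 (cards averaged) minus the Ct, with undetected wells kept at 40. Assays with a Ct under 40 in at least 3 of 6 samples (439) were fitted in R 4.3.3 with limma 3.58.1 (lmFit, eBayes, two-sided), without covariates, and adjusted by Benjamini-Hochberg over all of them. The test was checked on simulated data with a larger change than in any member. This check does not show whether changes of the members' size would be found. Read depth does not apply to Ct values, and 3 mice per group limit the precision.

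Named were all members, the 3 assays nearest to each member detected in all samples, and, of the other brain-enriched miRNAs, the 3 with the highest levels and any with an unadjusted P under 0.05. Members, lists and tests were chosen with earlier results of these data known. Alternatives were other references, filters, limits, variance models, a replicate block, a batch term and leaving out each replicate. A reference of U6, snoRNA135 and snoRNA202 and the raw-Ct spread of miR-138 were added after seeing the data. RefSeq names and sequences are those of GRCm38.p6.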

Additional observations from a re-analysis of the deposited data

Results flagged for a closer look

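The assay of a plant miRNA, which mice lack, gave a Ct of 39.776 on card A in EC-Dicerflox replicate 1 and was undetected in the other 11 of its 12 wells. It is a signal outside the comparisons and lies later than the latest detected well of the members, which was miR-153 in the same sample at 38.305. Groups of 3 are too small for a test of single outlying samples.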

How the results depend on the processing

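No member had an unadjusted limma P under 0.05, nor an adjusted one, in any of the 21 alternative fits. The lowest unadjusted P was 0.096 (miR-138, with a batch term for replicate 3) and the lowest adjusted P was 0.83. MiR-212 was lower in all 21 fits (-0.77 to -0.22). The signs of the others turned in the following fits, and the cause was not tested beyond the sample or reference left out. They were miR-9 (-0.0987) and miR-137 (-0.0797) with U6 alone, miR-137 without EC-DicerWT replicate 2 (-0.0831), miR-138 (0.0040) and miR-132 (0.0356) without EC-DicerWT replicate 3, and miR-219 without EC-Dicerflox replicate 1 (0.0951). MiR-124 turned with undetected wells left missing and without EC-Dicerflox replicate 2 (0.5948 in both) and without EC-DicerWT replicate 2 (0.0392). U6 alone as reference moved the median of all tested assays from -0.10 to -0.48, U6 and snoRNA135 to -0.27, and U6, snoRNA135 and snoRNA202, added after seeing the data, to -0.22.

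When each replicate was left out, the members with an unadjusted or adjusted P under 0.05 numbered 0 throughout, the changes ranged from 0.0794 to 0.50 (miR-9), -2.84 to 0.59 (miR-124), -0.0831 to 0.53 (miR-137), -1.23 to 0.0040 (miR-138), -0.70 to 0.0951 (miR-219), -0.33 to 0.0356 (miR-132) and -0.57 to -0.22 (miR-212), miR-132 minus miR-212 differed by 0.0737 to 0.286, and the difference in detected members ranged from -0.33 to 0.33. With a limit of Ct 35 it was 0.33. With a replicate block 0 members passed, as without it, and miR-132 minus miR-212 differed by 0.21, above 0 in 3 of 3 pairs (exact permutation P of 0.25, the smallest that 3 pairs allow). Same-numbered samples did not all deviate together (correlations across assays of 0.15, -0.06 and 0.31), and the samples were treated as unpaired. Among all tested assays the block gave 17 with an unadjusted P under 0.05 in place of 21.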
